A study of Mus musculus with 30 samples.

Results

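Expression of 10 complement and Fc gamma receptor genes was examined in platelets and peripheral blood mononuclear cells (PBMCs) of mice inoculated with melanoma cells. The genes were C3, C3ar1, C5ar1, Cfp, Cr1l, Cd55, Fcgr1, Fcgr2b, Fcgr3 and Fcgr4. They were found by matching the Ensembl identifiers of both count tables to mouse symbols, and all 10 were present among 54532 genes. The mice were young adult female C57BL/6 mice. C group received 100 µl of HBSS saline under the skin of the right flank. S group received 2000 cells of B16F10, a mouse melanoma line of C57BL/6 origin, in the same volume, and is labelled early tumor. O group received 100000 B16F10 cells and is labelled large tumor. Blood was drawn behind the eye into EDTA 14 days after injection. The labels state this day for S group only, and the paper gives it for all groups. Platelets were pelleted from the platelet-rich plasma, and PBMCs were taken from the bottom layer of the first spin. Each tissue and group gave 5 libraries, 30 in all, and each library pooled several mice, so the spread between libraries is a spread between pools. In O group, replicates 1 and 4 pooled 3 mice each in both tissues and the other pools held 4 or 5. Platelet pools held 5 or 10 mice in C group and, as labelled, 10 in S group. PBMC pools held 5 mice in C group and 4 or 5 in S group.

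Complement is a cascade of plasma proteins that tags surfaces for uptake and calls in leukocytes. C3 is its central component, and properdin (Cfp) stabilises the enzyme that cleaves C3 in the alternative pathway. C3ar1 and C5ar1 are the receptors for the released anaphylatoxins C3a and C5a, while Cd55 and the Crry protein encoded by Cr1l restrain C3 cleavage on the cell's own surface. Fc gamma receptors bind the constant part of IgG. Fcgr1, Fcgr3 and Fcgr4 encode activating receptors that signal through the common gamma chain (Fcer1g), and Fcgr2b encodes the inhibitory receptor, known on B cells and myeloid cells. Mouse platelets are known to lack the Fc gamma receptor that human platelets carry.

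In GRCm38, C3 lies at chr17:57203970-57228136, C3ar1 at chr6:122847138-122856161, C5ar1 at chr7:16246743-16259540, Cfp at chrX:20925454-20931555 and Fcgr1 at chr3:96282909-96293969, all on the minus strand. The other 5 genes are on chromosome 1. Fcgr2b (chr1:170958617-170976547, minus), Fcgr4 (chr1:171018920-171029761, plus) and Fcgr3 (chr1:171051174-171064935, minus) stand next to each other. Cd55 (chr1:130439027-130462744) and Cr1l (chr1:195097382-195131586) are both on the minus strand. Values are read counts over exons of each gene. The library kit did not mark strand, and antisense transcripts share 102 exon bases with Cd55 and 155 with Fcgr2b, so those reads could not be told apart. The Fc gamma receptors are related in sequence, and Cd55 has a close copy, Cd55b, which did not pass the filter in any comparison.

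Promoter sequence is shown for the genes whose levels carried the main contrasts of the platelet data: C3, which rose in S group, and C3ar1 and the complement regulator Cd59a, which stood high in the same O group libraries. These are the 250 bases before the RefSeq start (GRCm38.p6), at chr17:57228137-57228386 for C3, chr6:122856158-122856407 for C3ar1 and chr2:104095551-104095800 (plus strand) for Cd59a. Capitals mark matches on either strand to AGATAA, known for the GATA family, to GGAAGT, known for ETS factors, or to TGTGGT, known for RUNX factors. These families are active in megakaryocytes and myeloid cells.
C3: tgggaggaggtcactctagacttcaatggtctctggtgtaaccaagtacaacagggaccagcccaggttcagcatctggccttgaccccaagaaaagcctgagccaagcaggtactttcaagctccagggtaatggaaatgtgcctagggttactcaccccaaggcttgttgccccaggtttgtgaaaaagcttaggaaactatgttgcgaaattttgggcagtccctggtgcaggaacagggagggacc
C3ar1: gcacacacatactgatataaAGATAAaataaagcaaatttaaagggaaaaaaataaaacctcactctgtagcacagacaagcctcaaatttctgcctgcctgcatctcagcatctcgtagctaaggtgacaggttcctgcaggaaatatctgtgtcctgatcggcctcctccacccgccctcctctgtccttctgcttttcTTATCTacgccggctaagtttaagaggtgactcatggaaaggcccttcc
Cd59a: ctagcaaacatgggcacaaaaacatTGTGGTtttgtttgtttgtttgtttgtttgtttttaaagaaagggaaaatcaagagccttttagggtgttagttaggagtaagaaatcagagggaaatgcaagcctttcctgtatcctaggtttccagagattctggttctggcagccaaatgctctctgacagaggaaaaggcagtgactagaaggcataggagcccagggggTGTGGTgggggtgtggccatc
The C3ar1 window held 2 GATA matches, starting 230 and 49 bases before the start, and 10.3% of 27025 mouse promoter windows of the same length held at least 1. The Cd59a window held 2 RUNX matches, 225 and 21 bases before the start, and 14.2% of windows held 1. The C3 window held none of the 3 motifs, and the ETS letters were in 20% of windows. No motif of the 3 was shared between the C3ar1 and Cd59a windows.

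Total counts per library ranged from 12259036 to 25360080 in platelets and from 13390983 to 15973449 in PBMCs. Levels are given as CPM, the read count of a gene scaled to library size with TMM factors, within a tissue unless stated. A gene is called at an unadjusted P below 0.05 between groups and at an adjusted P below 0.05 between tissues, and printed P values are those adjusted over all genes tested. The platelet defining marker Pf4 was between 1551 and 12620 CPM in platelet libraries and between 104.3 and 1795 CPM in PBMC libraries. Markers of other blood cells were present in the platelet libraries: the summed level of 12 B cell markers was 401 to 1566 CPM, of 12 T cell markers 418 to 605 CPM, and of 12 monocyte and macrophage markers 720 to 3325 CPM, with no marker at 0 in any group. In PBMCs the same sums were 2286 to 4085, 1240 to 2107 and 4126 to 8712 CPM. Platelet O group replicate 1 held 3574 CPM of 12 neutrophil markers against 154 to 776 CPM in the other platelet libraries. In PBMCs the neutrophil sum was 7532 and 5795 CPM in O group replicates 1 and 4, 3880 CPM in S group replicate 4, 2521 CPM in C group replicate 4 and at most 1381 CPM elsewhere. The sum of 7 melanocyte and melanoma markers was at most 6.15 CPM in platelets. In pooled tissue RNA, fewer cells of a type and less RNA per cell cannot be told apart.

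The first comparison asked which of the genes platelets and PBMCs carry. Of the 10, 9 were lower in platelets, where 44.7% of all 14342 genes tested were lower, and 81.5% were called in either direction. On the log2 scale C3 fell by 2.54 (SE 0.180, adjusted P = 8.33e-14), with a median of 24.5 CPM in platelets and 138 CPM in PBMCs when all 30 libraries were scaled together. The activating receptor Fcgr1 fell by 2.49 (SE 0.217, adjusted P = 8.23e-12), and Fcgr2b and Fcgr4 changed by -2.26 each (SE 0.214 and 0.189). C5ar1 changed by -1.91 (SE 0.434), Cfp by -1.59 (SE 0.183), Fcgr3 by -1.54 (SE 0.151) and Cd55 by -1.47 (SE 0.158). Cr1l, the nearest to equal among the 9, fell by 0.65 (SE 0.104, adjusted P = 1.32e-06). C3ar1 stood apart at 0.83 higher in platelets (SE 0.449) with an adjusted P of 0.0877. DESeq2, voom and a block for the replicate number each called it, at 0.87, 0.83 and 1.06. The median over all genes in this comparison was -0.12 on the log2 scale.

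Per kilobase of exon, Fcgr3 and Cd55 had the highest medians in platelets, at 12.4 and 10.7 CPM per kb. C3 followed at 4.76, Cfp at 4.43, Fcgr4 at 3.22, Fcgr2b at 3.10, Cr1l at 3.10, Fcgr1 at 2.07, C5ar1 at 1.18 and C3ar1 at 0.780 CPM per kb. The platelet ranges of neighbours in this order overlapped. In PBMCs, Cd55 (32.0), Fcgr3 (31.3) and C3 (26.8 CPM per kb) led, followed by Fcgr4 (16.8), Fcgr2b (16.5), Cfp (14.9) and Fcgr1 (12). C5ar1 and Cr1l were lower at 4.81 and 5.22, and C3ar1 was last at 0.399 CPM per kb.

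**Figure D1:**
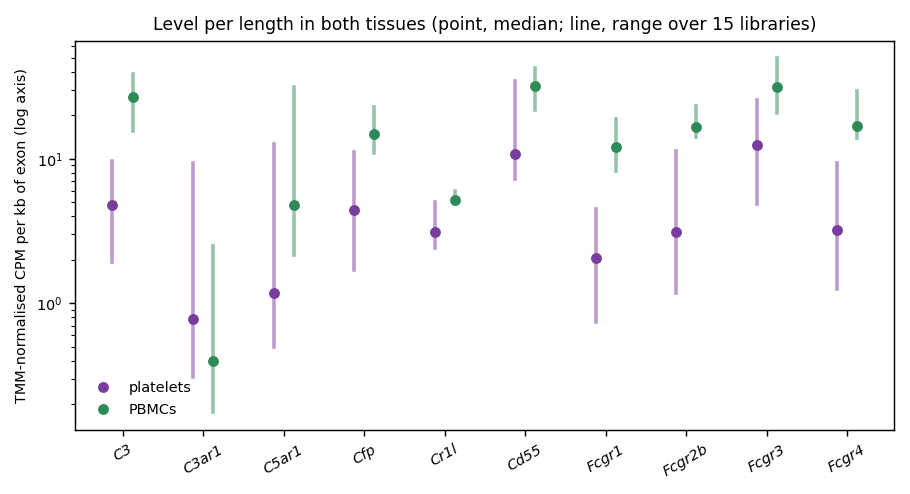
Level per kilobase of exon of the 10 genes in platelets and PBMCs, on a log axis, with all 30 libraries scaled together. Points are medians and lines the range over 15 libraries; C3ar1 is the gene whose platelet median (0.780 CPM per kb) was above its PBMC median (0.399).

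The other genes of the wider lists, counted without the 10 members, went in both directions, and no test of a difference from the members was made. Of 8 tested genes of complement initiation, 5 were higher in platelets and 2 lower, and of 7 tested regulators, 5 were higher and 2 lower. Serping1, the C1 inhibitor, was 6.63 higher on the log2 scale (SE 0.387, adjusted P = 1.33e-15), and Cd59b, which blocks assembly of the membrane attack complex, was 4.92 higher (SE 0.288). The C1q chain genes C1qa and C1qc were 4.01 (SE 0.359) and 3.19 higher (SE 0.331). Of 7 complement receptors tested, 3 were higher and 4 lower, with the integrin chains Itgax and Itgam at -2.42 and -2.35. Of 9 other Fc receptors and Fc receptor-like genes, none was higher and 8 were lower, led by the IgE receptor chains Ms4a2 (-2.61) and Fcer1a (-2.45). Of 17 Fc receptor signalling genes, 8 were higher and 7 lower; the phosphatase gene Ptpn11 was 2.90 higher and the adaptor Card9 stood at -2.09. C8g, the single terminal complement gene tested, fell by 1.83.

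The second comparison asked how the platelets of mice with the small inoculum differed from those of controls. C3 and Fcgr2b were higher in S group than in C group, and no member was lower. These 2 of 10 stand beside 6.42% of 13268 genes called at an unadjusted P below 0.05, 4.29% higher. The count over all genes, 852, ran from 556 to 1542 when 1 library was left out. No member passed an adjusted P of 0.05 in any comparison of groups, and of all genes 0.00754% did here, 0.033% in PBMCs of S group against C group and 0% in the other 4 by edgeR. The median over the members was 0.49 on the log2 scale against -0.01 over all genes tested, and 9 of 10 were positive. Some leukocyte marker lists had similar medians. These were 0.49 for monocytes and macrophages (11 of 12 positive), 0.47 for natural killer cells (9 of 10) and 0.44 for B cells (9 of 12). T cell, dendritic cell and neutrophil markers stood at 0.23, 0.01 and -0.01.

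C3 measured 21.4, 6.27, 11.3, 10.3 and 12.4 CPM in platelet replicates 1 to 5 of C group and 26.7, 15.6, 19.2, 18.9 and 30.9 CPM in S group. It rose 0.86 on the log2 scale (SE 0.285, adjusted P = 0.746). The groups overlapped, with 2 of the S libraries above every C library, and C group replicate 1 was the highest control. C3 is also among the genes the study selected on these libraries, so its direction here is not independent evidence. The study then measured C3 by qPCR in a validation cohort of mice and reported differences between mice with occult tumors and both other groups. Those groups were defined by tumor growth, not by the number of cells injected.

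Fcgr2b measured 21.5, 6.44, 8.50, 12.9 and 11.2 CPM in C group and 20.7, 11.3, 23.7, 11.1 and 40.5 CPM in S group, a difference of 0.84 (SE 0.377, adjusted P = 0.769). S group replicate 5 was the highest, and without it the difference was 0.46 and no longer called; the call was lost in 7 of 10 refits that each left out 1 library. Fcgr2b was likewise selected by the study on these libraries, and its qPCR in the validation cohort also gave differences from both other groups. The genes whose platelet levels followed it most closely over 15 libraries were Tcirg1 (Pearson r = 0.975), Il10ra (r = 0.971) and the unnamed gene ENSMUSG00000095041 (r = 0.966). S group replicate 5 also had the highest sum of B cell markers, 1566 CPM, against 762 to 1075 CPM in the other S libraries and 740 to 874 CPM in C group. S group replicate 3 and C group replicate 1 came next in Fcgr2b, with B cell sums of 975 and 806 CPM. Their monocyte and macrophage sums, 2717 and 3325 CPM, were the highest of their groups, against 1816 CPM in S group replicate 5. Of the 12 B cell markers 5 were higher in S group, of 12 T cell markers 4, of 10 natural killer cell markers 3 and of 12 monocyte and macrophage markers 1, beside 4.29% of all genes. The 10 erythroid markers had a median of -0.67 on the log2 scale, with none called, and the part of these markers in the result was not tested.

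The other 8 members were not called. The mean of Fcgr4 was 2.93 ± 1.52 CPM for the controls and 4.60 ± 1.67 CPM for S group (SD, n = 5), and that of Cfp 5.46 ± 1.85 and 7.91 ± 3.05 CPM. Cd55 stood at 28.4 to 32.1 CPM in 4 of the S libraries and at 104.6 CPM in replicate 5. Fcgr1 ranged from 1.62 to 7.27 CPM in S group and from 1.21 to 6.26 CPM in C group. Reads were few for some of these, with 23 to 100 counts per library for Fcgr4 over all platelet libraries.

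In the wider lists, 3 of 8 tested genes of complement initiation and 1 of 3 of the alternative pathway list were higher in S group platelets, the latter being C3. C4b, a component of the C3 convertase, was 1.26 higher (SE 0.437, adjusted P = 0.746). It stood at 1.34 to 2.18 CPM in C group and at 10.2 CPM in 1 S library, replicate 1. The other S libraries are not listed here, so the weight of that 1 library is not shown. Vtn (vitronectin), a fluid-phase regulator, fell by 2.39 (SE 0.835, adjusted P = 0.746), and its control level rested on C group replicate 3 at 14.2 CPM, where the liver marker sum was also highest at 25.9 CPM. Of 7 regulators tested besides the members 1 was higher, and Vtn was the 1 that was lower. None of the 7 other complement receptors tested was called, of 7 other Fc receptor genes 2 were higher, and of 17 Fc receptor signalling genes 2 were higher. Over all genes 4.29% were higher.

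**Figure D2:**
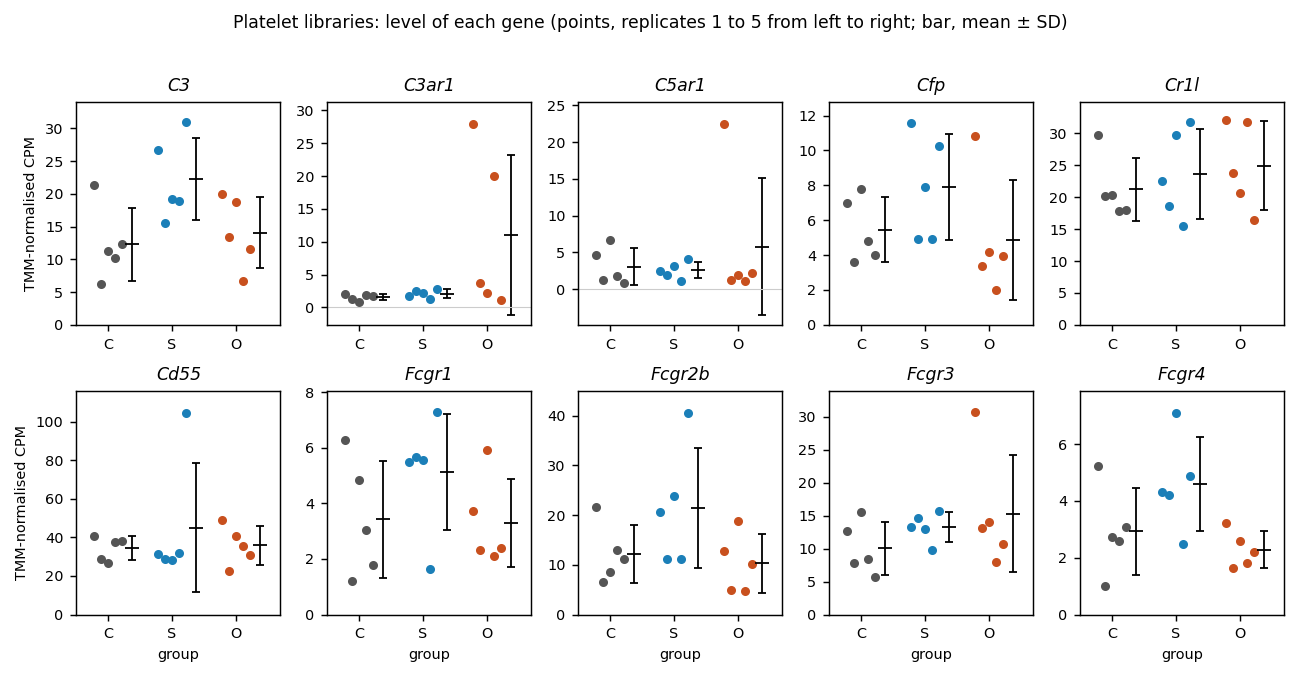
TMM-normalised CPM of the 10 genes in the 15 platelet libraries, by group on the x axis; points are replicates 1 to 5 from left to right and bars the mean ± SD of 5. C3ar1 was at 28.0 and 20.01 CPM in O group replicates 1 and 4, and Cd55 at 104.6 CPM in S group replicate 5.

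The third comparison set both inocula side by side in platelets. C3, Fcgr2b and Fcgr4 were higher in S group than in O group and C3ar1 was lower, 4 of 10 against 13.9% of 13306 genes called (7.23% higher, 6.67% lower). Both comparisons use the same S libraries. The median over the members was 0.50 on the log2 scale and -0.01 over all genes. Marker medians were 0.97 for B cells, 0.91 for natural killer cells, 0.73 for T cells and 0.61 for monocytes and macrophages. Dendritic cell and neutrophil markers stood at 0.28 and -2.22.

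Fcgr4 measured 4.31, 4.21, 7.11, 2.48 and 4.88 CPM in S group and 3.23, 1.63, 2.58, 1.81 and 2.19 CPM in O group, a difference of 1.03 (SE 0.312, adjusted P = 0.260). In 4 of the 5 S libraries it was above every O library. Fcgr2b measured 12.8, 4.85, 18.9, 4.65 and 10.2 CPM in O group, which put S group 1.07 higher (SE 0.457, adjusted P = 0.334). The call was lost in 6 of 10 refits without 1 library, with the lowest difference, 0.74, without S group replicate 5, and also without O group replicates 1 and 4 together (0.94). C3 measured 20, 13.4, 18.8, 6.72 and 11.6 CPM in O group, which put S group 0.67 higher (SE 0.302, adjusted P = 0.353), and its call was also lost in 6 of 10 refits, which left out replicates 1, 3 or 5 of S group (0.58, 0.70 and 0.53) or 2, 4 or 5 of O group (0.64, 0.49 and 0.60). Markers of leukocytes moved the same way: of 12 B cell markers 9 were higher in S group, of 12 T cell markers 8 and of 12 monocyte and macrophage markers 4, with B cell sums of 762 to 1566 CPM in S group and 401 to 912 CPM in O group. The T cell sums overlapped, at 460 to 564 CPM in S group and 446 to 605 CPM in O group. Of 10 natural killer cell markers 5 were higher, beside 7.23% of all genes. Of 11 neutrophil markers tested 7 were lower in S group, and of 10 erythroid markers 3, beside 6.67% of all genes. Their part in these results was not tested.

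Several other genes of antibody and complement function were called between S group and O group. The IgM receptor Fcmr was 1.12 higher (SE 0.260, adjusted P = 0.225), at 49.0 to 91.9 CPM in S group and 20.2 to 46.2 CPM in O group, without overlap, as for 3.59% of all genes tested. C1qc was 1.74 higher (SE 0.475, adjusted P = 0.238) and the B cell gene Fcrla 0.83 higher (SE 0.228, adjusted P = 0.239). Counted without the members, 5 of 8 tested initiation genes, 4 of 7 other Fc receptor genes and 2 of 7 complement receptors were higher with none lower. Of 6 regulators 1 was higher and 1 lower, and of 17 Fc receptor signalling genes 1 was higher. Over all genes 7.23% were higher.

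C3ar1 gave the largest contrast of any member in platelets, and the contrast rested on 2 libraries. It measured 2.05, 1.25, 0.895, 1.92 and 1.77 CPM in C group, 1.77, 2.48, 2.20, 1.24 and 2.85 CPM in S group, and 28.0, 3.72, 2.20, 20.01 and 1.16 CPM in O group. O group replicates 1 and 4 were far above the rest, and O group replicate 5 was within the controls. C3ar1 was 2.80 higher on the log2 scale in O group than in C group (SE 0.803, adjusted P = 0.910), the 1 member called of 10 where 4.79% of 13270 genes were called, 2.61% higher. That count over all genes, 635, ran from 474 to 1072 when 1 library was left out. S group against O group it gave -2.37 (SE 0.774, adjusted P = 0.275). Without replicates 1 and 4 of O group the values were 0.57 and -0.15, and with voom sample weights 1.17 and -0.96, and under neither was C3ar1 called. With the replicate number as a block the S against O value was -1.45 and not called, and the O against C value was 1.98 and still called. Over the 15 platelet libraries C3ar1 followed the thrombin receptor F2r most closely (r = 0.978), then Kcnk6 (r = 0.975) and Frmd5 (r = 0.967), and without the same 2 libraries these values were 0.886, 0.754 and 0.651.

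Cd59a, an inhibitor of the membrane attack complex, had the same high libraries. Its platelet level was 651 and 610 CPM in O group replicates 1 and 4, 77.2 and 117 CPM in replicates 3 and 2, 28.7 CPM in replicate 5, and 40.1 to 149.8 CPM over C and S groups. It was 1.90 higher in O group than in C group (SE 0.769, adjusted P = 0.910) and S group against O group gave -2.41 (SE 0.721, adjusted P = 0.260). F2r measured 104 and 63.4 CPM in replicates 1 and 4 of O group and at most 23.4 CPM in every other platelet library. Pf4 was also highest there, at 10180 and 12620 CPM. The sum of 15 platelet and megakaryocyte markers was 41940 CPM in replicate 1 and 59130 CPM in replicate 4, and up to 49960 CPM in the other platelet libraries (C group replicate 1). The neutrophil sum was 3574 CPM in replicate 1 and 333 CPM in replicate 4. The sum of 10 erythroid markers was 702700 CPM in replicate 1 and 47290 CPM in replicate 4, against 47030 to 346100 CPM in the other platelet libraries. The gamma chain gene Fcer1g measured 473 and 738 CPM in these libraries and 78.2 to 432 CPM in the rest. These pools are also the ones that held 3 mice, and pool size and level cannot be told apart.

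C5ar1 had a different pattern, with 22.5 CPM in O group replicate 1 and 0.854 to 6.61 CPM in the other 14 platelet libraries. Its closest genes were Hp (r = 0.963), Cd300lf (r = 0.956) and Pilra (r = 0.948), and without the 2 libraries farthest from its median these were 0.934, 0.954 and 0.849. Fcgr3 was highest in the same O library, at 30.7 CPM, where the neutrophil marker sum was also highest. Cfp stood at 10.8 CPM there, but also at 11.6 and 10.3 CPM in S group replicates 1 and 5. Their neutrophil sums were 221 and 292 CPM. None of the 3 was called in platelets of O group against C group. In that comparison the genes of the wider lists with the smallest P beside C3ar1 were Fcrla (-0.67, SE 0.207, adjusted P = 0.910) and Fcmr (-0.67, SE 0.230, adjusted P = 0.910), both lower in O group. Of the neutrophil markers 5 of 11 tested were higher in O group, and of the B cell markers 4 of 12 were lower. Over all genes 4.79% were called, 2.61% higher.

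**Figure D3:**
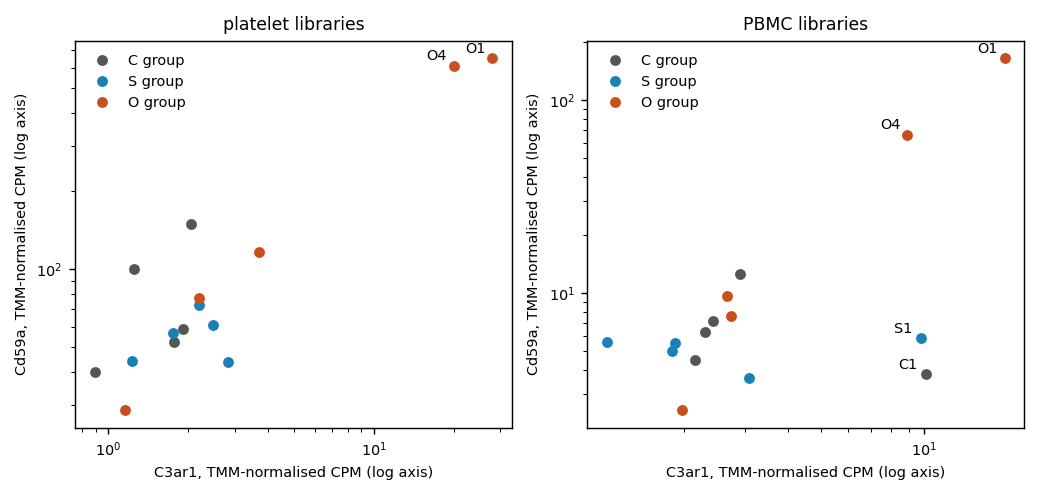
Level of Cd59a (y axis) against C3ar1 (x axis), both in TMM-normalised CPM on log axes, in platelet libraries (left) and PBMC libraries (right); each point is 1 library. O group replicates 1 and 4 are high in both genes in both tissues, and PBMC replicates 1 of C and S groups are high in C3ar1 alone.

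The same comparisons were made in PBMCs. No member was called between S group and C group, where 2.64% of 15139 genes were called by edgeR and 5 genes passed the adjusted threshold. The count over all genes, 400, ran from 327 to 603 when 1 library was left out. With the replicate number as a block, which here joined libraries that deviated together, there were again 0 members and 651 genes in place of 400. Fcmr was the one gene of the wider lists that was called, 0.24 higher in S group (SE 0.103); the count over these lists was 2 with the replicate block, 10 over all genes with at least 1 count, and 0 to 5 when 1 library was left out.

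C3 was highest in PBMCs of O group. It measured 253, 157, 206, 201 and 218 CPM in C group, 187, 159, 216, 127 and 217 CPM in S group and 293, 305, 265, 233 and 243 CPM in O group. Every O library was above every S library, as for 1.93% of genes in either direction, and 3 O libraries were above every C library. C3 gave -0.58 for S group against O group (SE 0.157, adjusted P = 0.296) and was 0.40 higher in O group than in C group (SE 0.129, adjusted P = 0.340). Without O group replicates 1 and 4, which carried the highest neutrophil sums, these were -0.59 and 0.41, and both were still called. Of 12 T cell markers 9 were higher in S group than in O group and 10 were lower in O group than in C group, and of 10 natural killer cell markers 9 and 4. Over all genes 12.2% and 11.9% were called in these comparisons, in either direction. The monocyte and macrophage sum was 6814 to 8712 CPM in O group and 4126 to 7389 CPM in S group, lowest in S group replicate 4, where C3 was also lowest, and the erythroid sum was 62430 to 497600 CPM in O group and 31070 to 84870 CPM in S group, and their part in the result was not tested.

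Cfp and Fcgr3 were lower in S group than in O group as well, so 3 of 10 members were called where 12.2% of 14686 genes were (7.8% lower), and Cfp joined C3 as higher in O group than in C group, 2 of 10 where 11.9% of 14726 were (7.56% higher). Cfp measured 41.6, 35.1, 30.2, 39.1 and 43.2 CPM in C group, 35.9, 33.5, 35.5, 51.6 and 39.2 CPM in S group and 62.7, 48.7, 40.0, 60.4 and 41.5 CPM in O group. Its differences were -0.39 (SE 0.156, adjusted P = 0.368) for S against O and 0.44 (SE 0.148, adjusted P = 0.346) for O against C. Fcgr3 averaged 79.4 ± 9.69 CPM in S group and 104.7 ± 25.2 CPM in O group (SD, n = 5), a difference of -0.42 (SE 0.157, adjusted P = 0.344). In S against O, the call of Cfp was lost in 6 of 10 refits without 1 library and that of Fcgr3 in 3. Both genes were highest in O group replicates 1 and 4, and without these libraries the values were -0.16 and 0.21 for Cfp and -0.17 for Fcgr3, none of them called. Of 12 neutrophil markers 3 were lower in S group than in O group, and all 10 erythroid markers tested were.

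**Figure D4:**
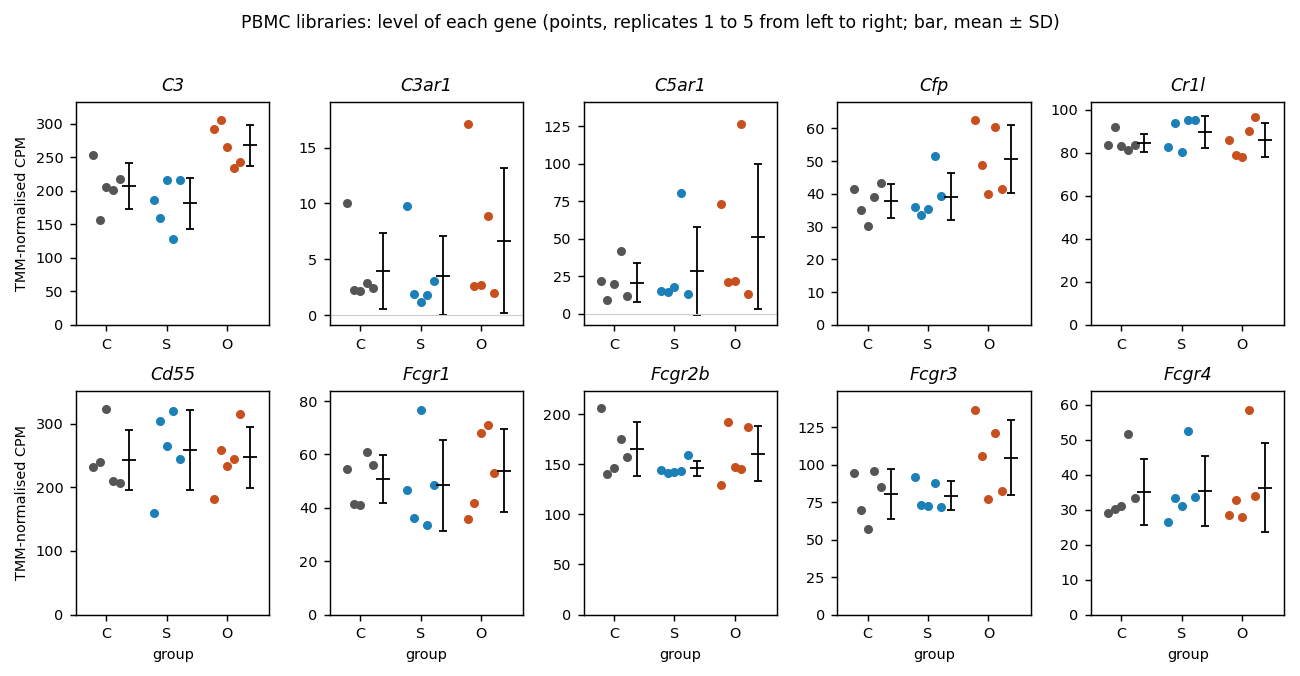
TMM-normalised CPM of the 10 genes in the 15 PBMC libraries, by group on the x axis; points are replicates 1 to 5 from left to right and bars the mean ± SD of 5. C3 in O group (233 to 305 CPM) lay above all of S group (127 to 217 CPM).

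C5ar1 and C3ar1 varied widely between PBMC libraries and were not called in the reported fits. With the replicate number as a block, C5ar1 was called in S group against O group (-0.77) and in O group against C group, as was Fcgr3 in the latter. C5ar1 was 127 and 72.9 CPM in O group replicates 4 and 1, 80.6 CPM in S group replicate 4 and 41.5 CPM in C group replicate 4, and 8.81 to 22.01 CPM in the rest. The 4 libraries were those with the highest neutrophil marker sums. C3ar1 was 17.1 and 8.90 CPM in O group replicates 1 and 4, 10.1 CPM in C group replicate 1 and 9.77 CPM in S group replicate 1, with 1.19 to 3.09 CPM elsewhere. Cd59a was 164.7 and 66.2 CPM in the same O libraries, whose platelet marker sums were 13020 and 7841 CPM against at most 5608 CPM in the others, but 3.79 and 5.86 CPM in the C and S libraries.

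Cr1l, Cd55, Fcgr1, Fcgr2b and Fcgr4 were not called in any PBMC comparison with all libraries. Without O group replicates 1 and 4, Fcgr2b was called in S group against O group at -0.28. Cr1l was the steadiest, at 84.8 ± 4.14, 89.6 ± 7.46 and 86.0 ± 7.75 CPM in C, S and O groups (SD, n = 5). Cd55 averaged 243 ± 47.1, 259 ± 63.1 and 247 ± 48.4 CPM, Fcgr1 50.8 ± 9.08, 48.4 ± 17.1 and 54.0 ± 15.6 CPM, and Fcgr2b 165 ± 26.7, 146 ± 7.53 and 161 ± 27.7 CPM. Fcgr4 stood at 51.6, 52.5 and 58.6 CPM in replicate 4 of the 3 groups and at 26.5 to 33.9 CPM in every other library.

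Of the wider lists, Cd93 (-0.80, SE 0.186, adjusted P = 0.296), a receptor of myeloid and endothelial cells, was lower in PBMCs of S group than of O group. The C1q-binding protein gene C1qbp gave -0.22 for O group against C group (SE 0.0701, adjusted P = 0.339). Of 17 Fc receptor signalling genes, 3 were lower in S group than in O group and 4 were higher in O group than in C group, with none in the other direction. Counted without the members, 1 of 7 complement receptors, 1 of 3 genes of the Fc gamma receptor and shared subunit list and 1 of 10 other Fc receptor genes were higher in S group than in O group, and 2, 1 and 0 of them were lower. Of 5 other regulators 2 were lower in S group than in O group and 1 was higher in O group than in C group. Over all genes 12.2% were called in S against O, 7.8% lower, and 11.9% in O against C, 7.56% higher.

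Whether platelets and PBMCs responded differently was tested as the difference of their log2 fold changes over all 30 libraries. For S group against C group, C3 (1.00, SE 0.358, adjusted P = 0.798) and Fcgr2b (0.95, SE 0.460, adjusted P = 0.921) were higher, 2 of 10 members where 5.38% of 16498 genes were called, 3.33% higher. Fcgr2b lost this call in 18 of 30 refits without 1 library, and C3 in none. For S group against O group, C3 (1.14, SE 0.359, adjusted P = 0.205), Cfp (1.04, SE 0.408, adjusted P = 0.272), Fcgr2b (1.13, SE 0.463, adjusted P = 0.285) and Fcgr4 (0.98, SE 0.423, adjusted P = 0.308) were called, 4 of 10 where 13.6% were (5.86% higher). Fcgr4 lost this call in 3 of 30 refits without 1 library and Fcgr2b in 1, and C3 and Cfp in none. In the same test 6 of 12 B cell, 5 of 12 monocyte and macrophage, 4 of 12 T cell, 2 of 10 natural killer cell and 3 of 10 erythroid markers were higher. Of these lists, 1 T cell and 2 natural killer cell markers were lower, and the part of the markers was not tested. C3 moved up in platelets and down in PBMCs in that comparison, at 0.67 and -0.58. For O group against C group, C3ar1 was called (2.16, SE 1.01, adjusted P = 0.726), 1 of 10 where 6.59% were (3.89% higher), and the call was lost in 10 of 30 refits without 1 library, with the lowest difference, 1.29, without platelet O group replicate 1. The median difference over all genes was -0.03, -0.08 and 0.07 in these 3 tests.

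**Figure D5:**
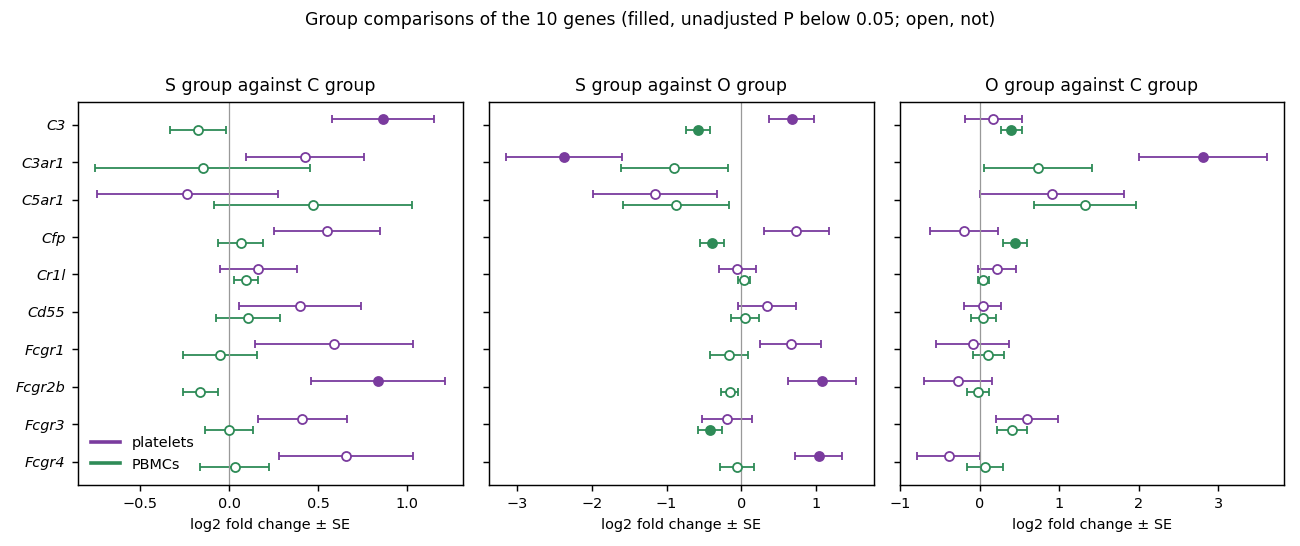
Log2 fold changes (x axis, points) with standard errors (bars) of the 10 genes in the 3 comparisons of groups, in platelets and PBMCs; filled points have an unadjusted P below 0.05. C3 lies at 0.67 in platelets and -0.58 in PBMCs for S group against O group.

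The nearest genes of the remaining members in platelets are given as a description over 15 libraries and 13878 genes. C3 followed Fuca2 (r = 0.908), Tnfrsf1b (r = 0.901) and Neu1 (r = 0.894), and Fcgr4 followed Creb3 (r = 0.897), Ly6i (r = 0.894) and Spns1 (r = 0.889). Fcgr1 followed the monocyte genes Clec4a1 (r = 0.909), Ly6c2 (r = 0.899) and Clec4a3 (r = 0.896), and Fcgr3 followed Dusp1 (r = 0.940), Lilra6 (r = 0.930) and Cd300lb (r = 0.929). Cfp followed Selplg (r = 0.941), Rnf167 (r = 0.915) and Tmem268 (r = 0.909). Cr1l followed Tmed2 (r = 0.932), Fxyd5 (r = 0.915) and Tcf25 (r = 0.904), and Cd55 followed Mdm4 (r = 0.917), Mss51 (r = 0.916) and Ttc14 (r = 0.907). Leaving out the 2 libraries farthest from each member's median left these values between 0.702 and 0.941.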

How the data were processed

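Platelet and PBMC RNA was sequenced as 5 libraries per tissue and group. As the authors describe, poly-A libraries were aligned with HISAT2 2.0.5 and reads were assigned to genes with featureCounts 1.5.0-p3. The deposited values are these raw counts, not normalized. The submitters' notes list mm9, but positions used here are GRCm38 (GENCODE M21), whose coordinates the study's tables share. Groups were taken from titles, since the cell type tag of platelet samples reads PBMC, and the mice per S group platelet pool differ slightly between labels and methods. Both tables were used with 0 columns left out. Depth limits the precision of low genes, such as C3ar1 with 18 to 387 counts per platelet library.

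Counts were tested in R 4.3.3 with edgeR 4.0.16: filterByExpr, TMM factors and the two-sided quasi-likelihood F test, each pair of groups alone, and all 30 libraries for the tissues (group as covariate) and for the difference of responses. All 10 members passed the filter in every comparison. An SE is the log2 fold change divided by the square root of F. The study's unadjusted threshold of 0.05 was used for groups and differences of responses, and a Benjamini-Hochberg adjusted 0.05 between tissues. P values adjusted over all genes are given beside members. The study names DESeq2 as its tool; it is an alternative here (DESeq2 1.42.0), with RLE factors, no filter, voom with sample weights (limma 3.58.1), all 3 groups in one fit, the replicate block and each library left out. The fits were tested on simulated data.

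Numbers pair libraries of PBMC S group and C group, since all 5 same-numbered pairs deviated together (correlations 0.272 to 0.569). The reported fit of that pair left the pairing out, and the block was an alternative. In every other pair of groups at most 4 of 5 correlations passed 0.1, so the numbers were not taken to pair them. PBMC O with S group missed this cut narrowly, with a lowest correlation of 0.0993. There, and in platelet O with C group, 4 of 5 O libraries correlated most with their own number. Platelets and PBMCs may share mice, which the joint fits ignored.

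Named genes were the 10 members; from the wider complement and Fc lists, up to 3 with the smallest P per comparison of groups and the 2 largest per list between tissues; the 3 most correlated genes per member, by log2(CPM + 1); and defining markers. A gene that the rule named is not reported here. Cd59a levels in all libraries, Fcer1g and promoter windows were chosen after values were seen. The members and lists were chosen with earlier results of these data known.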

Additional observations from a re-analysis of the deposited data

Results flagged for a closer look

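In 14 of 60 sets of 5 libraries (10 genes, 6 groups) 1 library stood far from the others by Dixon's test. The cutoff gives about 1 in 20 for independent, normally distributed values. CPM values were used without logs and the sets share libraries, so this rate is a rough guide only. In platelets, O group replicate 1 stood out for C5ar1 (22.48 CPM), Cfp (10.81 CPM) and Fcgr3 (30.68 CPM), S group replicate 5 for Cd55 (104.6 CPM) and C group replicate 1 for Cr1l (29.77 CPM). In PBMCs, replicate 4 stood out for Fcgr4 in all 3 groups (51.63 CPM in C group, 52.54 CPM in S group and 58.55 CPM in O group) and for C5ar1 in S group (80.64 CPM). Replicate 1 stood out for C3ar1 in PBMCs of C group (10.08 CPM) and S group (9.774 CPM). The remaining values were Cr1l in C group replicate 2 (91.96 CPM), Cd55 in C group replicate 3 (323.3 CPM) and Fcgr2b in S group replicate 5 (159.5 CPM), all in PBMCs.

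Platelets and PBMCs differed in their response, by the test of the difference itself at an unadjusted P below 0.05, in 7 cases, none past the adjusted threshold. For S group against C group these were C3 (1.004 on the log2 scale, adjusted P = 0.798) and Fcgr2b (0.9524, adjusted P = 0.921). For S group against O group they were C3 (1.143, adjusted P = 0.205), Cfp (1.037, adjusted P = 0.272), Fcgr2b (1.133, adjusted P = 0.285) and Fcgr4 (0.9783, adjusted P = 0.308). For O group against C group it was C3ar1 (2.16, adjusted P = 0.726).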

How the results depend on the processing

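No member that was called changed sign under any alternative: of 748 refits of the 28 called values, 673 kept their call and 75 lost it. Over all 100 member values, 116 of 2339 refits changed sign, all of values not called, and 51 brought a call. C3 kept its call under every alternative in platelets (S against C) and in PBMCs (S against O and O against C), as did Fcgr4 in platelets (S against O) and the 9 called members between tissues. In platelets S against C, voom called 6 members, where it called 15.7% of all genes against 6.42% in the reported fit. The fit of all 3 groups called 1 (C3), with 4.97% of all genes. In platelets O against C, voom and the fit without O group replicates 1 and 4 (chosen after seeing the data) called 0, and in PBMCs O against C the latter called 1. These fits called 6.65%, 3.13% and 9.08% of all genes. In PBMCs O against C, all genes with at least 1 count and the replicate block called 4 members each, with 8.31% and 12.2% of all genes. DESeq2 and the fit of all 3 groups called 3 (with Fcgr3), with 15.2% and 13.7% of all genes. The reported fit called 11.9%. For the difference of responses, S against C, DESeq2 and RLE factors called 1, with 7.01% and 5.5% of all genes. For O against C, RLE factors called 0, with 5.9% of all genes, and the cause was not tested. Leaving out 1 library gave 1 to 4 called members in platelets S against C, 2 to 5 in S against O and 1 to 2 in O against C. In these refits 556 to 1542, 1293 to 2146 and 474 to 1072 of all genes were called. In PBMCs 0 to 1, 1 to 4 and 2 to 4 members were called, beside 327 to 603, 1343 to 2677 and 1191 to 2634 of all genes. For the differences of responses the member counts were 1 to 4 in S against C, 3 to 5 in S against O and 0 to 2 in O against C. C3 in platelets S against O lost its call with RLE factors, with all 3 groups fitted and in 6 of 10 refits without 1 library, and Fcgr2b lost its call in 6 of 10 such refits in S against O and in 7 of 10, and with all 3 groups fitted, in S against C. Without platelet O group replicates 1 and 4, Fcgr2b lost its call in S against O and Cfp gained one (1.05). With the replicate block, C3ar1 in platelets S against O was -1.45 and not called while Cfp gained a call (0.86). So 4 members were called, all higher, with 11.6% of all genes called. In platelets S and O against C the block called 2 and 1, with 5.77% and 6.5% of all genes. It changed no member's call in PBMC S against C. In PBMCs it added C5ar1 in S against O, and C5ar1 and Fcgr3 in O against C; between tissues it added C3ar1, as did DESeq2 (0.87) and voom (0.83). Outside PBMC S against C the numbers were not taken as pairs, although 4 of 5 same-numbered correlations passed 0.1 in PBMC O with S group, PBMC O with C group, platelet O with C group, and O group of both tissues. These correlations are a hint from the data. The study describes 5 independent experiments, and the labels do not say whether the replicate numbers mark them. Low counts limit several members in platelets, whose lowest libraries held 13 counts of C5ar1, 18 of C3ar1, 23 of Fcgr4 and 27 of Fcgr1.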
